A study of Homo sapiens with 6 samples.

Results

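Replication-dependent histone genes make the bulk of the histones that package newly copied DNA. The genes described here are the protein-coding genes on human chromosomes 1 and 6 whose symbols begin with H2AC, H2BC, H3C or H4C and a number, together with the linker histone genes H1-1 to H1-6. There were 68 such genes among 19974 protein-coding genes: 6 of family H1, 17 of H2A, 18 of H2B, 13 of H3 and 14 of H4. The assay was ATAC-seq, which uses Tn5 transposase to cut and tag DNA that is not packed away, and the cells were KMS-11, an established human multiple myeloma line labelled as plasma cell myeloma and as wild type in every library. The 3 control libraries carry the treatment label LentiV2, and the 3 knockdown libraries the treatment label LentiV2_ATF4g3, 1 guide label for all of them. ATF4, which the design text says was knocked down, is the transcription factor that carries out the integrated stress response, for example when amino acids run short. The labels call the libraries biological replicates and do not say whether cultures were transduced separately, so p-values measure only the spread between these libraries.

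Each nucleosome wraps DNA around a core made of H3 with H4 and of H2A with H2B, and H1 binds the DNA between cores. Cells copy their DNA in S phase and need new histones then, so these short genes, which mostly lack introns, are transcribed in bursts at nuclear bodies that gather NPAT, a coactivator that CDK2 with cyclin E phosphorylates. Their messenger RNAs mostly end in a stem-loop bound by SLBP in place of a poly(A) tail. H2A and H2B genes often lie head to head and share a promoter, where CCAAT boxes, a TATA box and, in H2B genes, the octamer bound by POU2F1 recur.

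Promoter sequences are shown first for genes that the comparison below turns on, and for 1 gene with no peak as a contrast. They run 5′ to 3′ on the strand of the gene, come from RefSeq on GRCh38.p14, and stop before the first transcribed base of any other gene. Capitals mark the CCAAT box, the TATA box written TATAAA, the octamer written ATTTGCAT, the cyclic AMP response element written TGACGTCA and the composite element written TGATGCAA, each on either strand, and overlapping matches run together. H2BC15, an H2B gene, and its neighbour H2AC15 are transcribed away from each other, and chr6:27838376-27838568 is all the DNA between their starts. H2BC12, an H2B gene on the minus strand, has 1 copy each of the octamer and the cyclic AMP response element at chr6:27146859-27147105.
H2BC15: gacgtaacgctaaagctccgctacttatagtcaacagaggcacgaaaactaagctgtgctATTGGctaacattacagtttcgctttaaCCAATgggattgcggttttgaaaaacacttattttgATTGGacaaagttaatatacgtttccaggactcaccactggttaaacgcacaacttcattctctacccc
H2BC12: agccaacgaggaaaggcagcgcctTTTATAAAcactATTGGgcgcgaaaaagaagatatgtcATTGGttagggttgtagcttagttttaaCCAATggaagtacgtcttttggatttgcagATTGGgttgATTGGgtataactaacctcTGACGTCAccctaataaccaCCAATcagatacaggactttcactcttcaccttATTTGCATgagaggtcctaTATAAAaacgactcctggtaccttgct

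H4C11 on the plus strand, at chr6:27823842-27824091, and H4C12 on the minus strand, at chr6:27831561-27831810, are H4 genes with near copies of 1 promoter. Over the 300 bases from 250 before to 50 after the start, 295 were identical (98.3%). How reads with more than 1 match were placed is not given in the sources used here, so signal within such copies cannot be assigned to either with certainty.
H4C11: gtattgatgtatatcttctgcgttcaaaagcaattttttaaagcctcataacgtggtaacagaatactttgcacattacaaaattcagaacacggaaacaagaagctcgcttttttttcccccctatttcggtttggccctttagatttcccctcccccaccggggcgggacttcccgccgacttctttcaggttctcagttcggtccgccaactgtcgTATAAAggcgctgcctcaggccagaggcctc
H4C12: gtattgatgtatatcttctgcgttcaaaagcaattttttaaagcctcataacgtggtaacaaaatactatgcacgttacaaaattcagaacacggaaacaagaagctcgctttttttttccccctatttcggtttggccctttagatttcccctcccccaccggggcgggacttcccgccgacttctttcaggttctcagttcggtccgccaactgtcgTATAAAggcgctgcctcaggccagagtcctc

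H3C6, an H3 gene, is shown at chr6:26223928-26224177 before its outer start because it had the most negative difference of the tested histone genes in both fits below. H2BC6, an H2B gene at chr6:26183511-26183760, had no listed peak in any library. Before its start stand CCAAT at −137, the octamer at −108 and TATAAA at −189, while TATAAA stands at −31 in H4C11 and H4C12.
H3C6: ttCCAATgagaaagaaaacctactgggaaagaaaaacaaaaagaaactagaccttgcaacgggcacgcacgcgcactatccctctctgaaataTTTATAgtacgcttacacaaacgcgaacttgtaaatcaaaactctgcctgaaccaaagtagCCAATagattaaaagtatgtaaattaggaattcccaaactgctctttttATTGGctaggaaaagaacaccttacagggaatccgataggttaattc
H2BC6: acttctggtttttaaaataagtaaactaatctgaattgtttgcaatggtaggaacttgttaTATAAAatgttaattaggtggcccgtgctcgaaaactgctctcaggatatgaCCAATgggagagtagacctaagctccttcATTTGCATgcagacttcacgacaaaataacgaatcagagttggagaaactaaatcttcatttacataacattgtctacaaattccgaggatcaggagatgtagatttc

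The data were 1 list of MACS2 peaks per library on hg38, with 220250 to 238246 summits, each with the caller's fold enrichment and −log10 q, which are the authors' own values. The pileup (overlapping fragments or tags at a summit) and the caller's local background were recovered from these lists, and the local background value found most often in a list served as a measure of depth. That library background was 2.79 to 3.52 in the controls and 2.15 to 2.51 in the knockdown libraries, so sequencing depth and group cannot be told apart. The strongest fold near ATF4 was 14.1, 15.5 and 13.0 in the controls against 9.26, 9.57 and 12.5 after knockdown, and neither limma fit called ATF4 (adjusted p = 0.700 for covered length and 0.343 for fold rank). Accessibility of a gene does not measure its knockdown. Of plasma cell markers, 9 of 9 had a peak in all 6 libraries, but so did 4 of 5 B cell, 3 of 5 T and NK cell, 3 of 5 myeloid and 5 of 5 epithelial and stromal markers, so a peak near a gene does not tell cell types apart here.

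Most of the histone genes were accessible in every library. A listed peak lay within 1 kb of 54 of the 68 genes in all 6 libraries, or 79.4%, against 81.9% of all protein-coding genes and 38.7% of 1844 other genes of at most 3 kb. The number with a peak was 55, 55 and 56 in the controls against 55, 56 and 55 after knockdown. All 54 reached a −log10 q of at least 10 in every library, and 52 of them had a fold above 4 in every library. By family, 4 of 6 H1 genes, 15 of 17 H2A, 14 of 18 H2B, 10 of 13 H3 and 11 of 14 H4 genes had a peak in all 6.

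The 68 genes fall into 6 clusters when gaps over 200 kb separate them. All 11 genes of the chromosome 1 cluster at chr1:149782689-149887965 had a peak in all 6 libraries, as did 5 of 5 genes at chr6:27132316-27147562, 24 of 32 at chr6:26017032-26285534 and 14 of 16 at chr6:27807479-27893891. Neither of the outlying pairs, H2AC25 with H2BC26 on chromosome 1 and H2AC1 with H2BC1 on chromosome 6, had one in all 6. H2AC1 and H2BC1, which encode the testis variants of H2A and H2B, were listed in no library. H1-6, the testis linker histone, was not listed either, nor were H1-1, H2BC3, H3C3, H2BC6, H4C6, H4C7, H3C11 and H4C13. H2AC25 was listed in 1 library (fold 2.85 in knockdown 2), H2BC26 in 2 (3.10 in control 3 and 2.85 in knockdown 2) and H3C6 in 5. The 11 genes without a peak therefore lie among the other genes of the large chromosome 6 clusters, apart from H2AC1 and H2BC1.

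**Figure D1:**
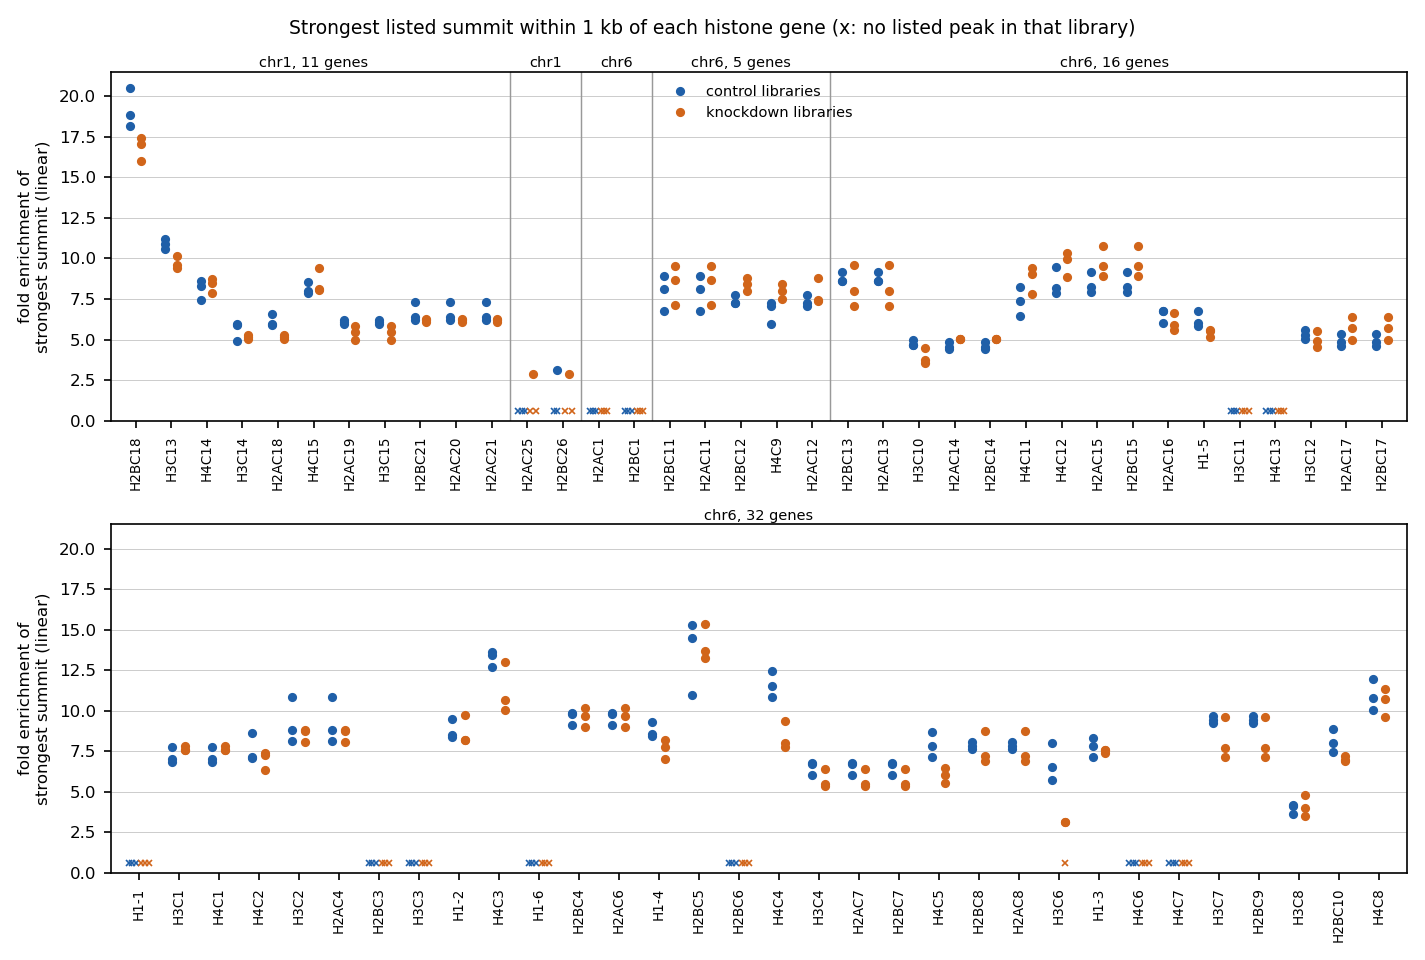
Fold enrichment of the strongest listed summit within 1 kb of each of the 68 histone genes, on a linear axis, with 1 point per library (blue for 3 control, orange for 3 knockdown) and genes in chromosome order within each cluster. Crosses at the foot mark libraries with no listed peak. H2BC18 is highest, at 16.02 to 20.5, and 11 genes have crosses only.

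The genes share peaks, so they are not independent. When peaks with a −log10 q of 2 or more were merged over libraries, 70 regions touched the histone genes, of which 28 served 2 genes, 5 served 3 and 37 served 1. In all, 42 genes shared a region with another histone gene. Of the 70 regions, 51 were present in all 6 libraries (72.9%, against 28.7% of 216029 regions across the genome). No region was found only in the knockdown libraries (0.102% of all regions) and 1 only in the controls (1.50% of all regions). That region, chr6:27839270-27839977, lies beyond the 3′ end of H2BC15 and had folds of 2.64, 2.22 and 2.38 in the 3 controls.

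Peaks sat at the starts of the genes. RefSeq gave 67 start sites for 63 of the genes (H2AC12, H3C11, H3C12, H4C1 and H4C3 had no entry), and 52 of the 67 were covered by a peak in all 6 libraries. The same number had a summit within 1 kb in all 6. The median position of their strongest summit was −93.75 bp from the start, that is upstream. It lay within 150 bp for 35 starts and within 300 bp for 44, upstream for 38 and downstream for 14. By family, the median position relative to the start was −128.75 bp in H2A (14 starts), −124.5 bp in H2B (16 starts), −74 bp in H3 (9 starts) and −3.5 bp in H1 (4 starts), but 112 bp, inside the transcribed part, in H4 (9 starts). This order is a description, since neighbouring genes share summits. The value of a gene comes from the strongest summit within 1 kb of the whole gene, which need not be the one at its start. Of 50 genes with a RefSeq start and a peak in all 6 libraries, 8 took their value in every library from a summit over 1 kb from their own start: H2BC18, H3C13, H3C15, H3C1, H2AC4, H1-4, H2BC5 and H2BC9. In 12 of the 50 the summit lay nearer the start of another histone gene in all 6 libraries, head-to-head pairs included.

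**Figure D2:**
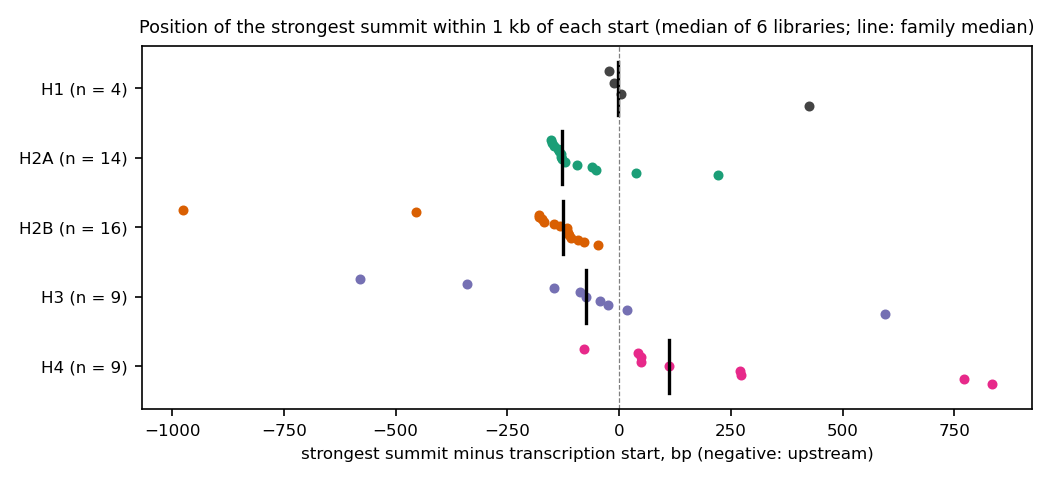
Distance in bp from each of 52 annotated starts to the strongest listed summit within 1 kb, as the median of 6 libraries, by family; negative values are upstream and the black line is the family median. H2A and H2B summits gather upstream at medians of −128.75 and −124.5 bp, and the H4 median lies at 112 bp downstream.

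Many H2A and H2B starts belong to head-to-head pairs. There were 13 pairs of starts pointing away from each other within 1 kb, 11 of them an H2A with an H2B gene, 194 to 979 bp apart with a median of 236 bp. In 10 pairs 1 peak covered both starts in all 6 libraries, with a summit between them. In the other 3 (H2AC25 with H2BC26, H2AC1 with H2BC1, and H3C7 with H2BC9) no library had 1 peak over both. H3C4 and H2AC7 share 1 annotated start opposite H2BC7 and so enter as separate pairs.

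Sequence elements differed between the families. CCAAT was present in 86.6% of the 67 histone promoters (250 bases before to 50 after the start), against 34.6% of 22132 promoters of protein-coding genes. It was in 100% of those of H1, H2A, H2B and H3 but 25% of those of H4. TATAAA was in 65.7%, against 9.46% of all promoters, counted anywhere in the window. In H2BC4, H2AC8 and H2BC14, each in a head-to-head pair, the only match stood at −220, −206 and −219. The octamer was in 75.0% of H2B and 68.8% of H2A promoters and in none of H1 or H4, against 1.65% of all. Windows of head-to-head pairs overlap, so the same octamer can be counted for an H2A and an H2B gene. That held for H2AC1 with H2BC1, H2AC6 with H2BC4, H2AC7 with H2BC7, H2AC8 with H2BC8 and H2AC11 with H2BC11. It also held for H2AC14 with H2BC14, H2AC17 with H2BC17 and H2AC20 with H2BC21. The octamers of H2AC4, H2AC16 and H2AC21 were not shared in this way. The H2A and H2B percentages therefore do not count separate sites. The SP1 box GGGCGG was in 25.4% of histone promoters and 56.3% of all. It was in 6.25% of H2A, 5% of H2B and 30.8% of H3 promoters, but in 58.3% of H4 and 66.7% of H1 promoters.

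Of the 10 starts of genes without a peak, 90% had CCAAT, 70% TATAAA and 40% the octamer, against 84.9%, 67.9% and 43.4% of the 53 starts of genes with a peak in all 6 libraries. CCAAT occurred 2 or more times in 40% of the former and 73.6% of the latter. The cyclic AMP response element, a site of the ATF and CREB families, stood at 10 of 67 starts (14.9%, against 2.26% of all), namely those of H3C14, H3C15, H3C2, H4C5, H4C8, H2AC14, H2BC14, H2AC16 and both starts of H2BC12. These starts do not hold 10 separate sites. H2AC14 and H2BC14 share 1 site, the starts of H2BC12 share another, and H3C14 and H3C15 have identical promoter windows. All 10 starts with the element belong to genes with a peak in all 6 libraries (18.9% of those starts), and none of the 10 starts of genes without a peak had it. So few starts without a peak cannot show a difference in an element this uncommon. The composite TGATGCAA, a form of the element that ATF4 binds with C/EBP partners, was in none of the 67 histone promoters and in 0.678% of all. The octamer, read on the other strand, shares most of its letters with this element. A match of letters is not a bound site.

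Among linker histone genes, H1-2 had the highest mean fold in the controls and H1-5 the lowest of those listed. H1-2 had folds of 8.49, 9.49 and 8.40 in the controls against 8.18, 8.17 and 9.72 after knockdown, and the groups overlapped. For H1-5 the folds were 6.79, 5.81 and 6.01 against 5.58, 5.13 and 5.51, so every knockdown value lay under the controls. In 1 library its strongest summit lay 2320 bp from its own start and nearer that of H2AC16, so these folds mix summits. H1-4 likewise had 9.30, 8.59 and 8.41 in the controls and lower folds of 7.03, 7.75 and 8.22 after knockdown, at a summit 1601 to 1628 bp from its own start and nearer that of H2BC5.

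Among H2A and H2B genes, which make the dimer of the nucleosome core, the range was widest. H2AC6, head to head with H2BC4, had 9.85, 9.78 and 9.12 in the controls against 9.65, 10.2 and 9.02 after knockdown. The lowest were H2AC14 and H2BC14, which share a peak, at 4.41, 4.87 and 4.52 against 5.02, 5.04 and 5.02. These 2 genes are among the few whose knockdown folds all lay above the controls. H2BC18 was the highest of all 68, at 18.85, 20.5 and 18.2 in the controls against 17.4, 17.1 and 16.02 after knockdown, with no overlap. Its value does not come from a histone promoter: the peak at chr1:149792440-149793560 lies inside the 29682 bp that the RefSeq entry of H2BC18 spans. FCGR1A and LOC124904411, which are not histone genes, had the same folds in every library. At its start site it shares a peak with H3C13.

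Among H3 and H4 genes, which make the central tetramer, H3C13 was highest for H3 at 10.9, 11.2 and 10.6 in the controls against 9.42, 9.57 and 10.15 after knockdown, without overlap. That summit lay 1200 to 1222 bp from the start of H3C13 and nearer the start of H2BC18. H3C8 was lowest, at 4.16, 4.11 and 3.66 against 4.79, 3.53 and 3.97, and overlapped. H4C3 led the H4 genes with 13.4, 13.6 and 12.7 in the controls. Its knockdown folds were 13.0, 10.7 and 10.04, and knockdown 1 reached into the control range. H4C9 was the lowest H4 gene in the controls, at 7.24, 7.06 and 5.95, and its knockdown folds of 8.02, 7.49 and 8.41 lay above them all. The median of the mean control folds was 8.25 in H1, 6.61 in H2A, 8.02 in H2B, 6.304 in H3 and 8.13 in H4.

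Neighbouring copies on chromosome 1 can be set side by side. H4C14 and H4C15 have identical promoter windows (300 of 300 bases), H3C14 and H3C15 match over 296 of 296 bases and H2AC18 and H2AC19 over 299 of 299. H4C14 had folds of 8.62, 8.32 and 7.46 in the controls against 7.84, 8.71 and 8.48 after knockdown, and H4C15 had 8.53, 7.98 and 7.89 against 8.03, 8.13 and 9.39. H2AC18 had 5.97, 6.57 and 5.92 against 5.17, 5.01 and 5.31, and H2AC19 6.11, 5.98 and 6.20 against 4.96, 5.82 and 5.49. H3C15 shares the peak and the values of H2AC19. H3C14 shares the peak of H2AC18 but read 4.90 in control 2. Identity was measured only up to 50 bases past the start, and the strongest summits of H4C14 and H4C15 lay a median 272 and 270 bp past it, where identity was not measured.

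The histone genes ranked low by the caller's fold and above the middle by pileup, and their local background was high. In the controls the median fold of the histone genes lay at the 25.3, 23.6 and 25.2 percentile of all genes, whereas the median pileup lay at the 66.3, 64.8 and 69.3 percentile. The local background at their strongest summits was a median 10.8, 12.1 and 11.3 times the library background in the controls, against 3.31, 3.34 and 3.35 over all genes. Replication-independent histone genes had a similar pattern, with a median local background of 8.502, 10.09 and 8.812 times. Their median fold lay at the 33.24, 31.34 and 34.81 percentile, and their median pileup at the 70.7, 70.99 and 68.43 percentile. Plasma cell markers had 7.472, 7.898 and 8.071 times, and the 27.48, 26.64 and 26.47 percentile by fold. The histone transcription, chaperone and S phase lists below had higher fold percentiles than all of these sets. In the replication-dependent genes, local background was highest in the chromosome 1 cluster, at 31.9, 33.1 and 32.7 times. H2BC21, an H2B gene there that shares its peak with H2AC20 and H2AC21, had a pileup of 720, 797 and 805 over a local background of 112, 108 and 130, which gave folds of 6.37, 7.29 and 6.18. H4C12 was the opposite case, with a pileup of 32, 35 and 36 over a local background of 3.19, 2.79 and 3.52, no higher than the library's, and folds of 7.88, 9.49 and 8.18.

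**Figure D3:**
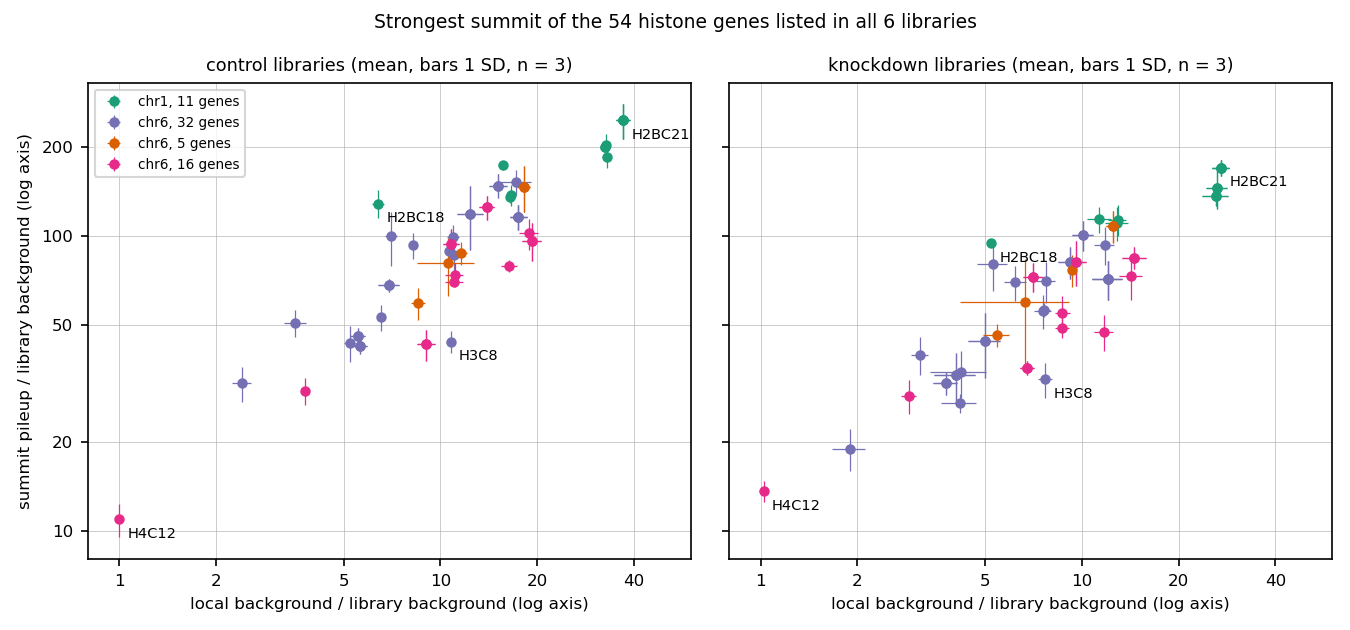
Summit pileup against local background, each divided by the library background and on log axes, for the 54 histone genes listed in all 6 libraries; points are means of 3 libraries, bars 1 SD, colours clusters. The chromosome 1 genes stand toward the top, most of them at the right, with a median local background of 31.9 to 33.1 in the controls, and H4C12 alone stands at about 1.

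In the knockdown libraries the strongest fold was lower for most of the histone genes, though for a smaller share of them than of all genes. The mean fold was lower in 33 of the 54 genes (61.1%) and higher in 21, while it was lower in 90.8% of all 16365 genes listed in all 6 libraries. The median ratio of knockdown to control fold was 0.940 for the histone genes, 0.840 for all genes and 0.865 for other genes of at most 3 kb. Folds of the groups did not overlap and were lower in 11 histone genes (49.7% of all genes) and higher in 4 (1.26% of all genes), which share 3 sets of values. H2BC12, among these 4, takes its values from different peaks in different libraries.

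Pileup and local background, taken over the library background, were each lower in 53 of the 54 histone genes. Over all genes, pileup was lower in 86.7% and local background in 76.9%. The median ratio of knockdown to control was 0.726 for pileup (0.737 for all genes) and 0.733 for local background (0.845 for all genes). The median ratio of local background was thus lower for the histone genes than for all genes, and that of pileup similar. Fewer cells with an open site, a site less open in each cell, and a library-wide difference in depth or signal over background cannot be told apart in these bulk libraries.

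The −log10 q, which grows with depth, was lower without overlap in 52 of the 54 histone genes, against 90.1% of all genes. Its median over the histone genes was 141, 162 and 164 in the controls against 85.25, 78.4 and 90.65 after knockdown. The exceptions were H4C11, with 59.3, 35.55 and 52.2 against 44.4, 29.5 and 50.5, and H4C12, with 19.4, 24.4 and 22.1 against 24.4, 18.55 and 27.1. In both genes the groups overlapped.

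Peaks over the histone genes were narrower in most of the genes in the knockdown libraries, as they were over all genes. The peak with the strongest summit had a median width over the 54 genes of 1259, 1198.5 and 1410.5 bp in the controls against 1038, 991.5 and 1006.5 bp after knockdown. The same peak had a median width over all genes of 988, 893 and 1018 bp against 928, 910 and 932 bp, less than over the histone genes in each library. Over all peaks the median width was 325, 302 and 347 bp in the controls, and 253, 247 and 262 bp after knockdown. The strongest peak was narrower on average in 45 of the 54 histone genes and wider in 9, and it was narrower in 73.8% of all genes. Widths did not overlap and were smaller in 22 genes (23.5% of all genes) and larger in 0 (3.37% of all genes). The strongest peak of a gene can be a different one in different libraries. In H2BC21 the width was 1266, 1274 and 1286 bp in the controls against 754, 762 and 702 bp after knockdown, but from different peaks. The controls took it from the peak in chr1:149887314-149888747, and the knockdown libraries from the one in chr1:149886241-149887215. These widths are therefore not a narrowing of 1 peak. The median ratio of widths was 0.8995 for the histone genes and 0.930 for all genes. Divided by the median width of each library it became 1.15, so the direction of this difference rests on the scale.

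Covered length asks whether more or less DNA within 1 kb of a gene lay in listed peaks, and no histone gene passed this test. Covered bases were scaled to the total of each library and compared as log2(value + 200 bp), a scale that understates changes at low values. With limma and Benjamini-Hochberg adjustment at 0.05 over 17565 genes with a peak in at least 3 libraries, 0 of 55 tested histone genes were lower (0.0911% of all tested genes) and 0 higher (0.114%). At an unadjusted p under 0.05, 4 were lower (10.1% of all) and 0 higher (7.01% of all). The groups did not overlap in 6 genes that were lower (12.9% of all) and 5 that were higher (10.5% of all). The median difference was −0.04 over the histone genes and −0.01 over all genes, with 30 below 0 (52.9% of all genes) and 25 above. The sign of the histone median changed with the setting. It was 0.09 with no margin around the gene, 0.14 and 0.29 with peaks of a −log10 q of at least 2 and 5, and 0.08 with lists of equal length, where the median over all genes was −0.01, 0.07, 0.17 and 0.04. Without control 3 the histone median was 0.002.

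H2BC15 came nearest to a call. Its scaled covered length was 1683, 1587 and 1718 bp in the controls against 1273, 1134 and 1319 bp after knockdown, with no overlap, a log2 difference of −0.37 (SE 0.086) and a limma adjusted p of 0.0984. The region past its 3′ end that was found only in the controls lies in this window. H3C6 had the most negative difference, −0.58 (SE 0.50, limma adjusted p = 0.620), from 594, 334 and 493 bp against 482, 0 and 449 bp. Without knockdown 2, where it was not listed, the difference was 0.001. H2BC9 had 515, 621 and 573 bp against 409, 401 and 394 bp, a difference of −0.35 (SE 0.19, limma adjusted p = 0.397). With no margin around the gene it was 0.043.

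The largest positive differences were smaller. H2BC5 is an H2B gene with a long entry. Its window also takes in the peak at chr6:26171401-26173324, whose strongest summit lay 13852 to 13878 bp from its nearest start. H2BC5 had 2270, 2302 and 2601 bp in the controls against 2841, 2921 and 2550 bp after knockdown. The groups overlapped (0.20, SE 0.092, limma adjusted p = 0.337). H1-4 had 1556, 1516 and 1648 bp against 1834, 1819 and 1703 bp, without overlap (0.16, SE 0.079, limma adjusted p = 0.354). H2AC21 had a difference of 0.15 (SE 0.081, limma adjusted p = 0.410). Peaks were also restricted to a −log10 q of at least 5 and scaled to their own total. Of 55 tested histone genes, 25 were then higher and 1 lower. Of all 16199 genes tested in this setting, 4267 were called higher and 673 lower, and their median moved to 0.17. With all listed peaks, 20 of 17565 genes were higher and 16 lower. With no scaling by library, 2 of 55 histone genes, H2AC11 and H2BC15, were lower and 0 higher. Of all 17565 genes tested in that setting, 492 were called lower and 72 higher.

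**Figure D4:**
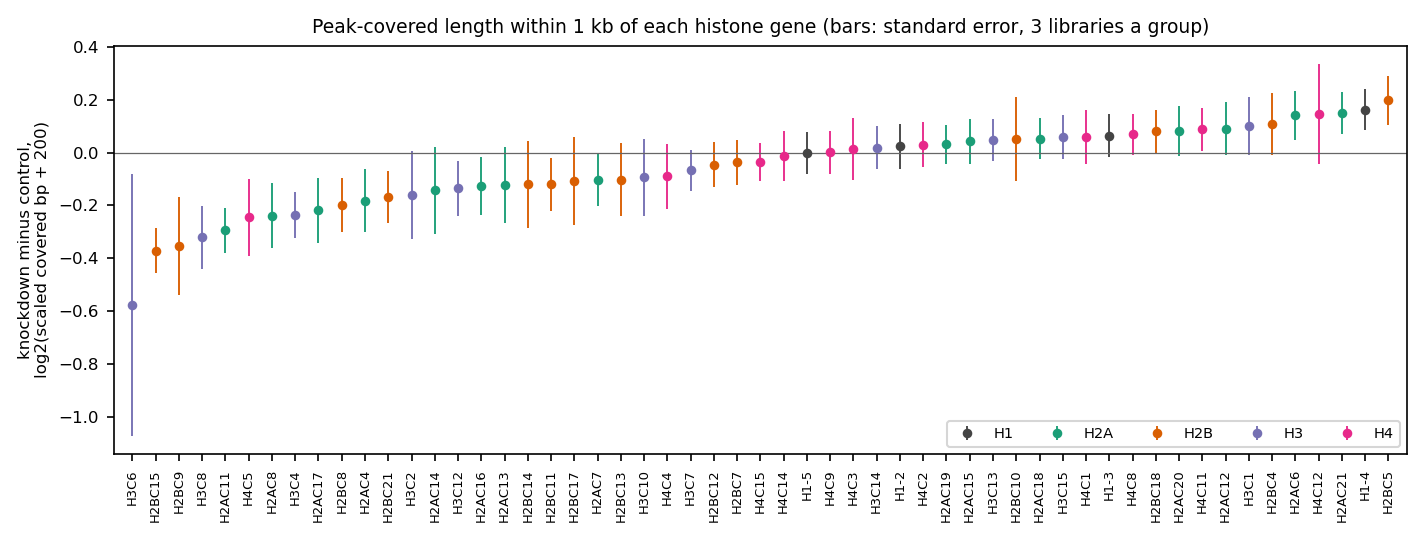
Difference in peak-covered length within 1 kb, knockdown minus control, as log2(scaled bp + 200), for 55 histone genes sorted by size and coloured by family; bars are 1 standard error of the limma fit on 3 libraries a group. H3C6 at −0.58 has the widest bar, and H2BC15 at −0.37 is the nearest to the threshold, which no gene passed.

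The second test asks where a gene stands within its own library, and here 6 histone genes rose. Each gene was ranked in each library by its strongest fold, ranks were turned into normal scores, and the scores were compared with limma. Of 55 tested histone genes, 6 were higher (2.96% of all tested genes) and 0 lower (4.10%): H2AC15 and H2BC15, which share 1 summit, H4C12, H4C11, H2BC12 and H4C9. They carry 5 distinct sets of values, since H2BC12 takes its value from the peak of H4C9 in 3 of the libraries and from the peak at its own start, which H2AC12 shares, in the others. Of the 6, 2 lie in the chromosome 6 cluster of 5 genes and 4 in that of 16 genes, and none among the 11 tested genes of the chromosome 1 cluster or the 25 of the cluster of 32. With 1 library left out, 0 to 569 of all 17565 genes were called, against 1241 with all 6. No histone gene was called without control 1, control 2, control 3, knockdown 1 or knockdown 2, and 2 (H2AC15 and H2BC15) were called without knockdown 3. The differences of the 6 genes stayed positive in each of these fits, at 0.317 to 0.475 for H2AC15 and H2BC15, 0.333 to 0.447 for H4C12, 0.28 to 0.403 for H4C11, 0.27 to 0.312 for H2BC12 and 0.26 to 0.32 for H4C9. None was called with the replicate number as a block. Whether these numbers pair the libraries is not known here.

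H2AC15 and H2BC15 had folds of 8.25, 9.19 and 7.94 in the controls against 9.51, 10.8 and 8.94 after knockdown. Control 2 reached above knockdown 3, so the folds overlapped. Within their libraries, though, they stood at the 28.4, 28.6 and 28.6 percentile against the 43.7, 48.9 and 36.65 percentile, with no overlap. The normal score was higher by 0.39 (SE 0.089, limma adjusted p = 0.0400). The covered length of H2BC15 went the other way, as given above.

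H4C12 had folds of 7.88, 9.49 and 8.18 in the controls against 9.94, 8.88 and 10.35 after knockdown, which overlapped. Its percentile was 27.25, 29.4 and 29.3 against 46.4, 37.6 and 44.3, and its score was higher by 0.38 (SE 0.081, limma adjusted p = 0.0333). It is the 1 histone gene whose pileup over library background was higher on average in the knockdown libraries, at 13.55, 12.6 and 14.7 against 10.03, 12.5 and 10.2, where the groups did not overlap but came as close as 12.56 in knockdown 2 and 12.54 in control 2.

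H4C11, the near copy of H4C12, had folds of 8.26, 6.48 and 7.36 in the controls against 9.06, 7.82 and 9.43 after knockdown, which overlapped. Its score was higher by 0.34 (SE 0.084, limma adjusted p = 0.0493). H2BC12 had folds of 7.24, 7.75 and 7.24 against 8.02, 8.80 and 8.41, without overlap, and a score higher by 0.29 (SE 0.061, limma adjusted p = 0.0331). These values mix the peak of H4C9 with the peak at its own start. At its own start alone the folds of H2BC12 were 7.09, 7.75 and 7.24 against 7.39, 8.80 and 7.44, which overlapped. H4C9, whose folds stand above, had a score higher by 0.29 (SE 0.065, limma adjusted p = 0.0380).

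Most of the histone genes stood a little higher in rank without passing the test. Of the 55 tested, 52 had a difference above 0 (55.3% of all tested genes), and the median was 0.14, against 0.04 over all tested genes. It was also above 0 in 10 of 10 tested replication-independent histone genes (median 0.22) and 9 of 9 plasma cell markers (median 0.15). The share was smaller in genes of histone transcription and 3′ end processing (12 of 18), chaperones and supply (5 of 9) and S phase (10 of 14). Scores of the groups did not overlap in 41 tested histone genes that were higher (21.1% of all), which hold 29 distinct sets of values, and in 1 that was lower (14.0% of all). H2BC5 had the largest difference, 0.57 (SE 0.17, limma adjusted p = 0.0733), with folds of 14.5, 15.3 and 10.96 in the controls against 13.25, 15.3 and 13.7 after knockdown. Control 3 was its low library. These folds come from the peak at chr6:26171401-26173324, 13852 to 13878 bp from its nearest RefSeq start. With no margin around the gene the difference was 0.075 (limma adjusted p = 0.451).

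The 3 most negative were H3C6, H4C4 and H4C5. H3C6 had folds of 8.02, 6.51 and 5.73 in the controls, 3.11 and 3.14 in knockdown 1 and 3, and no peak in knockdown 2, and a difference of −0.44 (SE 0.16, limma adjusted p = 0.112). Its summit held a pileup of 33, 26 and 25 in the controls and 10 in each knockdown library that listed it. H4C4 had folds of 10.9, 12.5 and 11.55 against 7.78, 7.98 and 9.34, without overlap, but its rank differed by only −0.14 (limma adjusted p = 0.272). H4C5 had 7.14, 8.71 and 7.81 against 6.44, 5.57 and 6.04, also without overlap, and a rank difference of −0.004 (limma adjusted p = 0.975). Mean folds were lower in 90.8% of all genes, so a lower fold can go with little change in rank.

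The measure that was ranked also mattered. Ranked by −log10 q in place of fold, H4C11 and H4C12 were called higher and the median over the histone genes was −0.01. Ranked by pileup, H1-4 and H2BC5 were called lower, none higher, and the median was −0.07. The number of all genes called by pileup is given in the last section. Calls over all genes by −log10 q, and medians over all genes, are not set beside these values. They are a description only, and nothing particular to the histone genes is read from them.

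Local background moved with the rank difference. The local background of the controls is also the denominator of the control fold, so the grouping and the rank difference are not independent measures. The 16365 genes listed in all 6 libraries were split into 5 groups of equal size by local background over library background in the controls. From the lowest to the highest group, the median rank difference was −0.17, −0.15, 0.04, 0.16 and 0.23, and 5, 20, 72, 141 and 245 genes were called higher. Of the 54 histone genes, 43 lay in the highest group, 7 in the next, 2 in the middle one and 1 in each of the others. In the highest group 90.6% of all genes had a positive difference. H4C12 is the histone gene of the lowest group, where 23.9% of genes had a positive difference, and it is 1 of the 5 called higher there. The part of local background and of depth in these calls was not tested.

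**Figure D5:**
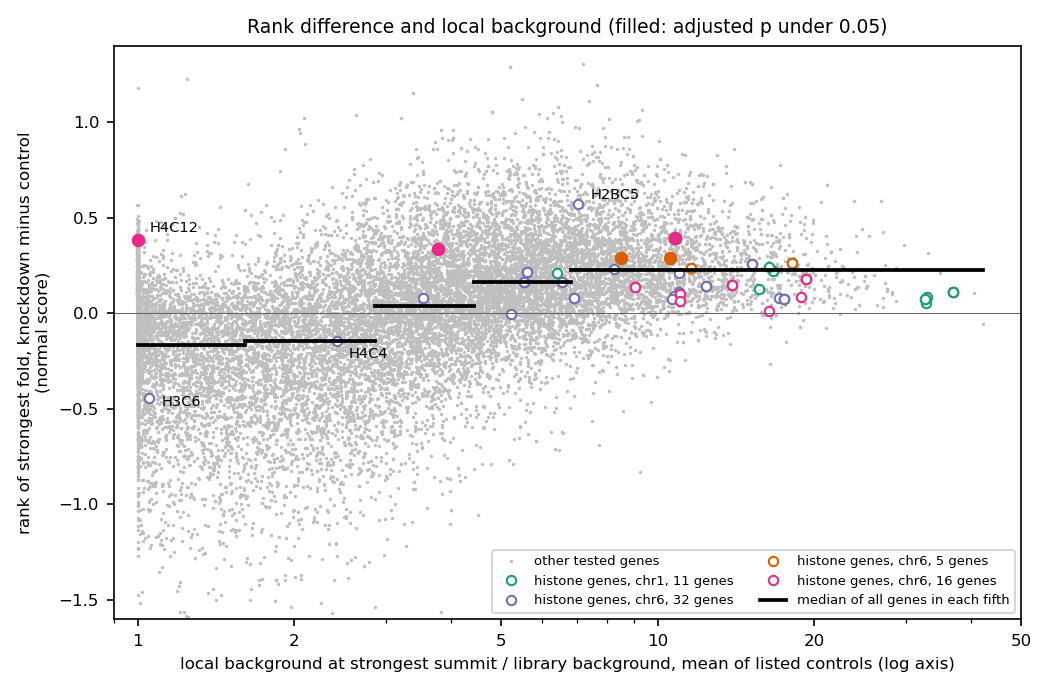
Rank difference of each tested gene (normal score, knockdown minus control) against its local background over the library background in the controls, on a log axis; grey points are 17433 other genes, coloured rings histone genes by cluster, filled where the limma adjusted p is under 0.05, and black lines the median of each of 5 equal groups of the genes listed in all 6 libraries. The medians go from −0.17 in the lowest group to 0.23 in the highest, where 43 histone genes lie, and 18 genes fall outside the axis.

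Genes that make, process or handle histone transcripts and proteins showed no call by covered length with limma in any of 4 lists, which held 18, 9, 12 and 14 genes. By fold rank, the 18 genes of histone gene transcription and 3′ end processing had 1 lower and 0 higher. The lower one was POU2F1, the octamer-binding factor, with folds of 23.2, 26.8 and 22.0 in the controls against 16.5, 15.6 and 17.1 after knockdown (−0.85, limma adjusted p = 0.0333). NPAT, the coactivator of histone genes, had 14.6, 15.1 and 14.6 against 13.8, 12.6 and 14.9 (0.31, limma adjusted p = 0.227). CASP8AP2, a component of histone locus bodies, differed by 0.38 (limma adjusted p = 0.156), and HINFP, which activates H4 genes, by 0.74 (limma adjusted p = 0.0627). SLBP, the stem-loop binding protein, differed by −0.29 (limma adjusted p = 0.503). By covered length the smallest p in this list were those of ZNF473, a factor of histone 3′ end processing (limma adjusted p = 0.146), CPSF1 (0.193) and CASP8AP2 (0.196).

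Of 9 histone chaperone and supply genes, 2 were higher in rank, RBBP7, a histone-binding subunit of several complexes (0.45, limma adjusted p = 0.0342), and TONSL, which binds new histones at replication forks (0.42, limma adjusted p = 0.0266). Of 10 tested replication-independent histone genes, 1 was higher: H2AX, the variant phosphorylated at DNA breaks, with folds of 9.73, 11.1 and 10.6 against 11.3, 11.9 and 12.6 (0.55, limma adjusted p = 0.0230). Of 14 S phase genes, 1 was lower, the thymidylate synthase gene TYMS, with 13.0, 14.7 and 10.6 against 6.97, 6.996 and 7.70 (−0.42, limma adjusted p = 0.0427). The median rank difference of the 4 lists was 0.18, 0.13, 0.22 and 0.18. Of 21 tested protein-coding genes that lie between the histone genes without being one, 11 had a negative difference, the median was −0.03, 1 was lower (SLC17A3) and 0 were higher. Their local background was a median 3.39, 3.56 and 3.49 times the library's in the controls, against 10.8 to 12.1 at the histone genes.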

How the data were processed

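ATAC-seq peak lists of 3 control and 3 ATF4 knockdown libraries of KMS-11 were used, grouped by the treatment label. Per the submitters' processing notes, MACS2 was the peak caller and hg38 the build, with 1 list per library. Not given in the sources used here are its version and settings, the aligner, read filters and any shift for the transposase. In the deposited lists the fold enrichment is a ratio of pileup to local background with 1 added to each. The deposited −log10 p and −log10 q come from the caller's test within a library. The deposited score repeats the −log10 p on another scale and was not used. The summit offset in bp was deposited by the authors and gave summit positions.

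Gene positions and 300-base promoters came from RefSeq on GRCh38.p14. A gene was listed in a library when a peak lay within 1 kb. Pileup and local background were recovered from fold and −log10 p by the Poisson tail, within 0.01 on the −log10 scale, for 100% of summits. Covered length (pseudocount 200 bp) and the normal score of the fold rank were each fitted with limma 3.58.1 in R 4.3.3 (trend and robust settings, Benjamini-Hochberg over 17565 genes listed in at least 3 libraries), without a block. Other steps used Python 3.11.15, numpy 2.4.6, pandas 2.3.3 and scipy 1.17.1. The fits were tested on simulated data. Groups of 3 are too small for a search for outlying libraries.

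The histone genes, the gene lists and the rules were chosen with earlier results of these data known. Named genes were the highest and lowest listed gene of each family by mean control fold, genes listed nowhere, ATF4, the 3 largest differences in each direction in each fit (called genes first), testis genes, identical neighbours on chromosome 1, and NPAT, CASP8AP2, SLBP, HINFP and the list genes with the smallest p. Others, among them H2BC12, H4C11, H2BC21, H2AC11, H2BC6, RBBP7, TYMS and SLC17A3, were chosen after their values were seen. Alternatives changed the window, peak threshold, list length, filter, pseudocount, scaling, rank measure, replicate block and each library.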

Additional observations from a re-analysis of the deposited data

How the results depend on the processing

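The lists hold no counts, and what the lower depth of the knockdown libraries limits was not tested; more genes were listed in them (17468 to 17531) than in the controls (17157 to 17392). Over all genes, calls by covered length (36) became 6 with no margin, 144 with 5 kb, 11 with a −log10 q minimum of 2 and 4940 with one of 5, 2 with lists of equal length, 89 with no filter, 0 among genes of at most 3 kb, 4 and 82 with a pseudocount of 50 and 500 bp, 564 with no scaling, 2 scaled by gene windows, and 1 to 4 with 1 library left out. Histone genes called by covered length (0) became 26 with the −log10 q minimum of 5 and 2 with no scaling, and 0 in the other 16 settings. Calls by fold rank (1241) became 462 with no filter, 70 among genes of at most 3 kb, 2091 by pileup and 0 to 569 with 1 library left out, and the 6 histone genes, all higher, became 9 higher among genes of at most 3 kb (5 of the 6 among them), 5 higher and 1 lower with the −log10 q minimum of 5, 5 with no margin, 6 at 5 kb, with the −log10 q minimum of 2 and with lists of equal length, 0 with no filter, 2 by −log10 q, 2 by pileup (both lower) and 0 to 2 with 1 library left out. In a ranking by pileup over local background with nothing added, chosen after seeing the data, 397 genes were called, 1 of them a histone gene, H4C12 (0.57, limma adjusted p = 0.0393). The median over all genes was −0.01 for covered length and moved to −0.13 with no scaling and 0.17 with the −log10 q minimum of 5. The width ratio (0.8995) became 1.145 over library medians. Reversed values of covered length were 0.043 for H2BC9 with no margin, −0.274 for ATF4 and −0.061 for H2AC21 at 5 kb, 0.046 for H2BC15 with the −log10 q minimum of 5, 0.001 for H3C6 without knockdown 2 (−0.883 to 0.001 with 1 library left out) and −0.046 for ATF4 with no scaling. Those of fold rank were for H4C5 0.028 with no margin, 0.017 at 5 kb and −0.045 to 0.022 with 1 library left out, and −0.357 for H2BC5 by pileup. The cause of these changes was not tested. With the replicate number as a block, 2 genes were called by covered length and 78 by fold rank, 0 of them histone genes, and the 6 had limma adjusted p of 0.0613 to 0.0751. Deviations of libraries with the same number correlated at −0.047 to 0.035, and those with different numbers at −0.069 to 0.074. Deviations within groups of 3 libraries cannot settle whether the numbers pair the libraries.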
